A study of Homo sapiens with 4 samples.

Results

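CABLES1 encodes an adaptor protein that is a substrate of CDK5 and of the ABL tyrosine kinases. It was examined here together with its paralog CABLES2 and with 6 genes of the kinases and the cyclin that the adaptors connect, CDK2, CDK3, CDK5, CDK5R1, CCNE1 and WEE1. The group was selected on 1 measured value, the lower RNA level of CABLES1 in MORC2 KO cells, and the other members were chosen by what their proteins are known to do. They are 8 of the 28775 genes in the count table, and 7 of the 8 had enough reads to be compared. The level of CABLES1 in MORC2 KO and WT is therefore given as a description, without a test.

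All samples are labelled as HEK293T cells, a transformed human embryonic kidney line. The paper's methods for making the knockout lines name HEK293 cells instead, and the labels are followed here. The 2 MORC2 KO samples came from 2 lines that each received Cas9 protein and a different MORC2 gRNA, with gRNA 1 in replicate 1 and gRNA 2 in replicate 2. Both lines are bulk populations of edited cells and not single clones, so cells with an intact MORC2 can be present. The 2 WT samples are HEK293T cells labelled Wild-type with no gRNA, and whether they went through electroporation is not given in the sources used here. The labels name no drug treatment in any of the 4 samples.

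In cycling cells, cyclin E bound to CDK2 drives entry into S phase, and WEE1 restrains CDK2 by phosphorylating a tyrosine in its ATP-binding loop. CABLES1 is known to promote this inhibitory phosphorylation and to slow growth, and its protein is lost in several carcinomas. In neurons, CABLES1 brings CDK5, which is activated by p35 (the product of CDK5R1), together with ABL, so that CDK5 becomes phosphorylated on tyrosine. Under the older name ik3-1, CABLES1 was described as a binding partner of CDK3.

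The starts of CABLES1 and CABLES2 are shown because these paralogs lie on different chromosomes and because reads were counted per gene and not per start. RefSeq lists 3 starts for CABLES1 and 1 for CABLES2 on GRCh38.p14, and the 250 bases before the CpG-rich CABLES1 start and before the CABLES2 start are printed 5′ to 3′ on the strand of the gene, with each CpG in capitals. The CABLES1 stretch lies at chr18:23135235-23135484 on the plus strand, and the CABLES2 stretch at chr20:62407286-62407535 on the minus strand.
CABLES1: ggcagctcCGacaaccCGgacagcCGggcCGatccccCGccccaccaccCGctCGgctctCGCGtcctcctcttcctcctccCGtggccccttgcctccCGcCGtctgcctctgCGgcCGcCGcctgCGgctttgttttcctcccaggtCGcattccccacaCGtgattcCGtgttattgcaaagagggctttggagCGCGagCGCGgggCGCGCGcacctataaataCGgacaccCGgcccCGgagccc
CABLES2: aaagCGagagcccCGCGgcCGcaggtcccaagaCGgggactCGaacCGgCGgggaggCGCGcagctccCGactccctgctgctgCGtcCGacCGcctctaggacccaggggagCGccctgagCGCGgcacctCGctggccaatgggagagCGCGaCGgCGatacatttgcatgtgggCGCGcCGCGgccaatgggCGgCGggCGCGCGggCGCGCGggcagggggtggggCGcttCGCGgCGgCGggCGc

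This CABLES1 stretch holds 29 CpG and the CABLES2 stretch 40, against a median of 11 over 35116 RefSeq promoter stretches of the same length. The letters TATAAA begin 30 bases before this CABLES1 start on the sense strand and are absent from the CABLES2 stretch, and 10.7% of all stretches hold them on either strand. CABLES2 has CCAAT on its sense strand at 2 places and this CABLES1 stretch has none on either strand, whereas 32% of all stretches hold it. Both hold GGGCGG at 1 place, as do 42.6% of all stretches at 1 place or more, and CACGTG was found in this CABLES1 stretch, in 6.34% of all stretches and not in that of CABLES2. Each motif was searched on both strands. The other 2 CABLES1 starts have 9 and 4 CpG before them. The stretch with 9 CpG holds TATAAA on the opposite strand and GGGCGG at 2 places, without CACGTG. The stretch with 4 CpG holds GGGCGG and CACGTG at 1 place each, without TATAAA. Neither holds CCAAT. Which start carried the RNA cannot be told from counts per gene, and a match of letters is not a bound site.

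The libraries held between 53970043 and 64312514 counted read pairs on genes. The MORC2 KO samples differed more from each other than the WT samples did, with a median absolute difference in log2 CPM (CPM, counts scaled to library size and composition) of 0.120 against 0.0758, and leaving out MORC2 KO replicate 2 is therefore reported where it matters. MORC2 itself was at 51.2 and 55.0 CPM in MORC2 KO and at 86.2 and 87.7 CPM in WT. Its RNA was thus lower but not absent in both edited lines. The paper checked the knockout in both lines on protein, by western blot, which RNA counts do not measure. All 6 genes listed as markers of the HEK293 lineage were detected, with summed levels of 181 and 183 CPM in MORC2 KO and 175 and 178 CPM in WT. None of the 6 was called by edgeR and 1 had an unadjusted p under 0.05, the neurofilament gene NEFM at 0.44 on the log2 scale. EYA1 was at 0.22 and INA, the most abundant per kb, at 0.12. The 8 listed markers of leukocytes, hepatocytes, fibroblasts, endothelium, erythroid cells, squamous epithelium and muscle summed to between 3.69 and 4.76 CPM in every library. PTPRC and HBB had at most 1 read pair in any library and KRT5 at most 2. The same 8 markers were slightly higher in WT (4.21 and 4.76 CPM) than in MORC2 KO (3.69 and 3.75 CPM). The collagen gene COL1A1 had most of the reads, with a log2 fold change of -0.29. COL3A1 was at -0.54, but on few read pairs, 10 and 15 in MORC2 KO against 26 and 7 in WT, and the groups overlapped. ALB went the other way, at 0.35, with 9 and 14 read pairs in MORC2 KO against 6 and 10 in WT. The part of these markers in the results was not tested. Of these markers 3 passed the filter, none was called and 0 had an unadjusted p under 0.05 by edgeR.

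For CABLES1, 7145 and 6830 read pairs were counted in the edited lines and 9131 and 8489 in WT. After scaling this was 119 CPM in MORC2 KO replicate 1, 103 CPM in MORC2 KO replicate 2, 153 CPM in WT replicate 1 and 159 CPM in WT replicate 2. Both edited lines lay below both WT samples, and the line made with gRNA 2 was the lowest. The means were 111 ± 11.4 CPM (SD, n = 2) in MORC2 KO and 156 ± 4.27 CPM (SD, n = 2) in WT, which puts MORC2 KO at 71.2% of WT. The log2 fold change was -0.49. It was -0.39 without MORC2 KO replicate 2 and -0.61 without MORC2 KO replicate 1, so the direction was the same in each edited line while the size differed. In these bulk samples, fewer cells with CABLES1 RNA and less of it per cell cannot be told apart.

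CABLES1 was one of 5 genes called lower in MORC2 KO by edgeR's quasi-likelihood test at an adjusted p under 0.05, or 0.0300% of the 16675 genes tested, and this call is what the selection used. Over all tested genes 274 had a more negative log2 fold change. Among the 4105 genes with a mean log2 CPM over 6, where CABLES1 was at 7.04, 2 did. The selection favours such a place in the order, so it is a description. In the T2T-CHM13v2.0 annotation CABLES1 (Entrez 91768) spans 23327896 to 23454570 of chromosome 18, plus strand, with 12 exon segments and 5509 exonic bases, none of them shared with another gene of the annotation. Its counts are thus not affected by the removal of read pairs that overlap several genes.

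CABLES2, the paralog, which also binds CDKs and ABL, was lower by a smaller amount. Its level was 28.8 and 28.1 CPM in MORC2 KO and 31.4 and 33.2 CPM in WT. The groups did not overlap, with MORC2 KO below WT, as in 23.4% of all tested genes. Its log2 fold change was -0.18 (95% interval from -0.32 to -0.04), and with adjustment over all tested genes edgeR gave an adjusted p of 0.257, so CABLES2 was not called. Without MORC2 KO replicate 1 it was -0.21 and called, in a fit that called 20.5% of all genes. CABLES2 spans 64185135 to 64203829 of chromosome 20, minus strand, and none of its 3783 exonic bases is shared with another gene.

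Per kb of exon, CABLES1 was the more abundant paralog in every sample. The ratio of CABLES1 to CABLES2 in CPM per kb was 2.85 and 2.53 in the edited lines against 3.36 and 3.30 in WT. CABLES1 made up 74.0% and 71.6% of the summed CABLES RNA per kb in MORC2 KO and 77.1% and 76.7% in WT. The sum itself was 29.3 and 26.2 CPM per kb in MORC2 KO and 36.1 and 37.7 CPM per kb in WT. The groups did not overlap in it, as was so for 47.5% of all tested genes. CABLES1, whose value chose the group, makes up most of the sum, so ratio and sum are given as descriptions. With 2 samples against 2, an exact two-sided permutation test on a single ratio cannot go below p = 0.333, so none is given.

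**Figure D1:**
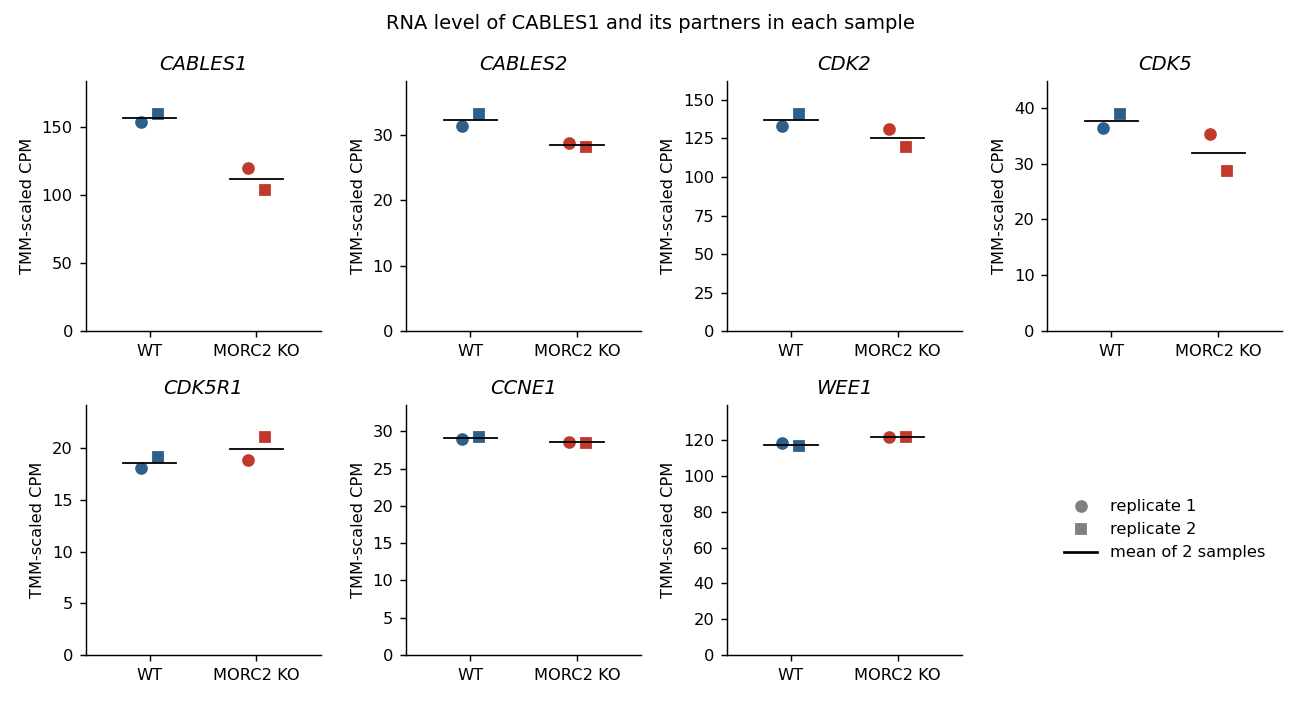
Each panel plots 1 member, with genotype on the horizontal axis and the TMM-scaled level in CPM on the vertical axis, which starts at 0. Circles are replicate 1, squares replicate 2 and lines the means of 2 samples. CABLES1 separates most, at 103 and 119 CPM in MORC2 KO against 153 and 159 CPM in WT, while CCNE1 lies between 28.4 and 29.2 CPM in all 4 samples. CDK3, with a count of 0 in every sample, is not drawn.

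CDK2, the kinase whose activity CABLES1 is known to restrain, was at 131 CPM in MORC2 KO replicate 1, 119.7 CPM in MORC2 KO replicate 2, 133 CPM in WT replicate 1 and 141 CPM in WT replicate 2. MORC2 KO replicate 1 lay just under the lower WT sample, and MORC2 KO replicate 2 lay further below. The log2 fold change was -0.13 (95% interval from -0.27 to 0.012, adjusted p = 0.385 in edgeR). It was -0.06 without MORC2 KO replicate 2 and -0.08 without WT replicate 2, and without MORC2 KO replicate 1 it was -0.21 and called, so the size of the CDK2 difference depends on single libraries. CCNE1, which encodes the cyclin E1 partner of CDK2, was at 28.6 and 28.4 CPM in MORC2 KO and 29.0 and 29.2 CPM in WT. Its log2 fold change of -0.029 (95% interval from -0.17 to 0.11, adjusted p = 0.866 in edgeR) makes CCNE1 the member with the smallest difference. The direction turned with scaling to library size alone, where it was 0.010.

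WEE1, the kinase that places the inhibitory phosphate on CDK2, was at 121.6 and 121.7 CPM in MORC2 KO and 118.5 and 116.6 CPM in WT. The MORC2 KO samples were both above the WT samples, as in 24.1% of all tested genes, but by little. For WEE1 the log2 fold change was 0.049 (95% interval from -0.07 to 0.17, adjusted p = 0.712 in edgeR).

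CDK5, the kinase that gives CABLES1 its name, was at 35.3 CPM in MORC2 KO replicate 1, 28.6 CPM in MORC2 KO replicate 2, 36.4 CPM in WT replicate 1 and 38.9 CPM in WT replicate 2. MORC2 KO replicate 2 stood apart, and MORC2 KO replicate 1 was close to WT. The log2 fold change was -0.24 (95% interval from -0.43 to -0.05, adjusted p = 0.271 in edgeR). It was -0.09 without MORC2 KO replicate 2 and -0.41 without MORC2 KO replicate 1, so the size rests on the line made with gRNA 2. Without the filter on low counts, CDK5 was called as well (adjusted p = 0.0373 in edgeR), in a fit that called 2.84% of all genes.

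CDK5R1 encodes p35, the activator that CDK5 needs in place of a cyclin. It was at 18.9 and 21.0 CPM in MORC2 KO and 18.1 and 19.1 CPM in WT, and the groups overlapped. For CDK5R1 the log2 fold change was 0.10 (95% interval from -0.07 to 0.28, adjusted p = 0.566 in edgeR). It was 0.024 without MORC2 KO replicate 2, 0.17 without MORC2 KO replicate 1 and 0.06 without WT replicate 1. The ratio of CDK5R1 to CDK5 in CPM per kb was 0.152 and 0.209 in the edited lines against 0.141 and 0.139 in WT, so it was highest in MORC2 KO replicate 2, where CDK5 was lowest.

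CDK3, a close relative of CDK2 that acts on leaving quiescence, could not be measured in this table. Its count was 0 in all 4 samples. All 1620 of its exonic bases on chromosome 17, from 76893983 to 76899134, are shared with the read-through gene TEN1-CDK3, and read pairs that overlap more than 1 gene were left out of the counting. TEN1, the other gene of the read-through, shares 100% of its exonic bases in the same way and was also at 0 in every sample. TEN1-CDK3 has 736 exonic bases of its own and held 101 and 139 read pairs in the edited lines against 94 and 104 in WT. A count of 0 for CDK3 therefore says nothing about its RNA.

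Of the 7 members compared, CABLES1, whose call the selection used, was the one called by edgeR at an adjusted p under 0.05. Over all tested genes 0.618% were called in either direction and 0.588% were called higher. At an unadjusted p under 0.05 there were 3 of the 7, CABLES1, CABLES2 and CDK5, beside 14.3% of all tested genes. In 5 members both MORC2 KO samples lay below both WT samples and in 1 member, WEE1, above, so that 6 of 7 did not overlap. Over all tested genes, 23.4% lay below, 24.1% above, and 47.5% did not overlap in either direction. The median log2 fold change of the 7 members was -0.13, against 0.0054 over all tested genes. It was -0.048 over the genes with a mean log2 CPM over 6 and -0.0010 over those from 4 to 6. The members lie in both ranges. CABLES1, whose value chose the group, is included in these counts. Of the other 6 members 0 were called, 2 had an unadjusted p under 0.05, 4 lay below and 1 above without overlap, and the median was -0.08. Leaving out MORC2 KO replicate 1, the log2 fold changes were -0.21 for CABLES2, -0.21 for CDK2 and -0.41 for CDK5. Leaving out MORC2 KO replicate 2, they were -0.16, -0.06 and -0.09. In these fits 1 genotype has a single sample, which is assumed to vary like the other group.

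**Figure D2:**
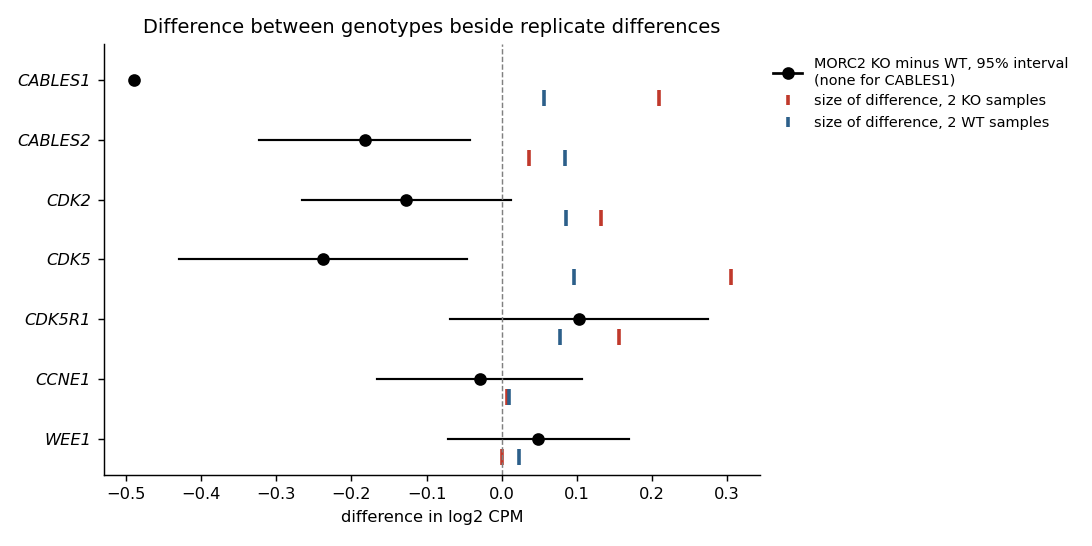
Black points give each member's difference between MORC2 KO and WT in log2 CPM on the horizontal axis, with the 95% interval except for CABLES1, and coloured ticks under them give the size of the difference between the 2 samples of one genotype. CABLES1, whose value chose the group, is drawn at -0.49 without an interval. The MORC2 KO samples differ most from each other in CDK5, by 0.305.

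Per kb of exon, CDK2 was the most abundant member, with a mean of 58.6 CPM per kb over the 4 samples (range 53.4 to 63.0). CDK5 followed at 31.0 (25.5 to 34.7), WEE1 at 28.0 (27.3 to 28.4) and CABLES1 at 24.3 (18.8 to 29.0) CPM per kb. Over all 4 samples the ranges of these 3 genes overlap from one to the next, but within a genotype they were mostly separate. In WT CDK5, at 32.5 and 34.7 CPM per kb, lay above both others, and in MORC2 KO, at 31.5 and 25.5, it lay on either side of WEE1. In WT alone CABLES1, at 27.9 and 29.0 CPM per kb, lay just above WEE1 at 27.7 and 27.3, and in MORC2 KO, at 21.7 and 18.8, it lay below WEE1 at 28.4 in both samples. CCNE1 was at 14.7 CPM per kb, CABLES2 at 8.03 and CDK5R1 at 4.88, and each of these ranges was clear of its neighbours in the order. The CDK5R1 level was near the middle of the 16675 tested genes, at percentile 50.2, and that of CABLES1 at percentile 81.7.

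The genes next to CABLES1 were compared to see whether the lower level extended along the chromosome. The annotation has 9 other genes within 500 kb, of which 8 were tested. None of the 8 was called by edgeR and 0 had an unadjusted p under 0.05. Of these, 6 had a positive and 2 a negative log2 fold change, with a median of 0.09. The nearest on one side, SLC35D4, a solute carrier gene 35540 bases away, had 1448 and 1600 read pairs in the edited lines against 1324 and 1268 in WT, with a log2 fold change of 0.07 (95% interval from -0.08 to 0.22). The nearest on the other side, RBBP8, which encodes the DNA end resection factor CtIP and lies 108054 bases away, had a log2 fold change of -0.040 (95% interval from -0.17 to 0.09).

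Farther along, the kinase gene RIOK3 was at 0.023, RMC1 at -0.016, the cholesterol transporter gene NPC1 at 0.11, ANKRD29 at 0.13 and the laminin gene LAMA3 at 0.26 on the log2 scale. RMC1 and NPC1 overlap at their ends on opposite strands. Since strand was not used, read pairs that overlap both genes were left out of both counts. RBBP8-AS1 had between 7 and 15 read pairs, and its log2 fold change of 0.53 has a 95% interval from -0.58 to 1.64. The 95% intervals of all 8 neighbours include 0. CABLES1 was selected for its lower level, so no test of its difference from them is given.

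**Figure D3:**
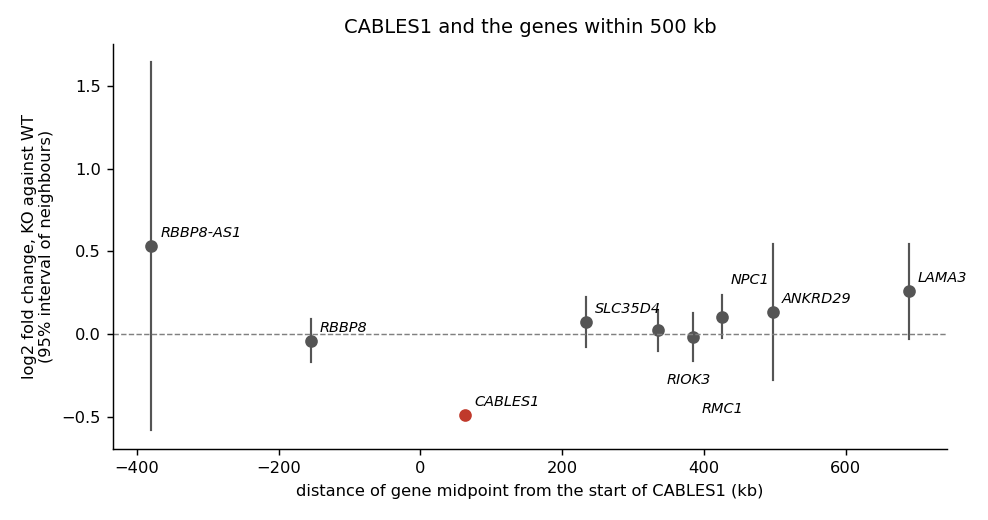
The horizontal axis gives the distance in kb of each gene's midpoint from the start of CABLES1 and the vertical axis its log2 fold change (MORC2 KO against WT) with the 95% interval for the neighbours. CABLES1, whose value chose the group, lies at -0.49 and is drawn without one, and its 8 tested neighbours lie between -0.040 and 0.53, with intervals that include 0.

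The other genes of CDK control were described from fixed lists. Of 13 cyclin genes, all tested, none was called by edgeR and 1 had an unadjusted p under 0.05. This was CCND2, a cyclin that partners CDK4 and CDK6, whose mean was 81.0 ± 11.1 CPM (SD, n = 2) for MORC2 KO and 69.1 ± 0.518 CPM (SD, n = 2) for WT, with a log2 fold change of 0.23 (adjusted p = 0.249 in edgeR). CCND1 was at 0.24 on the log2 scale (adjusted p = 0.408 in edgeR) and the mitotic cyclin CCNB1, the most abundant per kb, at -0.037. The median of the list was -0.029.

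Of 13 cyclin-dependent kinase genes 12 were tested, since CDK3 had no counts. None was called by edgeR, 10 of the 12 had a negative log2 fold change beside 48.5% of all tested genes, and 2 had an unadjusted p under 0.05, CDK5 and CDK4, or 16.7% beside 14.3% of all. CDK4, which drives the G1 phase with cyclin D, averaged 201 ± 23.2 CPM (SD, n = 2) for MORC2 KO and 227 ± 9.37 CPM (SD, n = 2) for WT, with a log2 fold change of -0.17 (adjusted p = 0.328 in edgeR). The median of the list was -0.06. Over all tested genes it was -0.048 at a mean log2 CPM over 6, -0.0010 from 4 to 6 and 0.053 from 2 to 4. The 12 genes span these levels. Without MORC2 KO replicate 1, 3 of the 12 were called, in the fit that called 20.5% of all genes.

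Of 8 CDK inhibitor genes none was called and 0 had an unadjusted p under 0.05 by edgeR, with log2 fold changes between -0.10 and 0.28. CDKN1A, which encodes p21, was at 0.09, CDKN1B, which encodes p27, at 0.08, CDKN2C, which encodes p18, at -0.10 and CDKN2A, the most abundant per kb, at -0.0065 on the log2 scale. Among the genes that set or remove the inhibitory tyrosine phosphate of CDKs, 5 of 6 were tested. By edgeR none of the 5 was called and 0 had an unadjusted p under 0.05. PKMYT1, a kinase related to WEE1, was at 0.08 and the opposing phosphatase gene CDC25A, the most abundant of them per kb, at -0.11 on the log2 scale.

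Of 10 genes for activators, binding partners and substrates of CDK5, 9 were tested, none was called by edgeR and 1 had an unadjusted p under 0.05. This was CDK5RAP3, a CDK5 regulatory subunit associated protein gene, at 0.23 on the log2 scale (adjusted p = 0.287 in edgeR). Its level was 61.5 CPM in MORC2 KO replicate 1 and 76.7 CPM in MORC2 KO replicate 2, and 61.4 and 56.7 CPM in the WT samples, so the line made with gRNA 2 stood apart and the other was level with WT replicate 1. The kinase gene PAK1, a target of p35 and CDK5, was at -0.09 and CDK5RAP2, the most abundant per kb, at -0.0055. CDK5R2, the neuronal p39 activator, had between 42 and 54 read pairs. Of the ABL kinases and other partners ascribed to CABLES1, 9 of 10 were tested. By edgeR none of the 9 was called and 0 had an unadjusted p under 0.05. ABL1 was at -0.031, ABL2 at -0.09, the N-cadherin gene CDH2 at 0.10 and the beta-catenin gene CTNNB1, the most abundant per kb, at -0.06 on the log2 scale.

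**Figure D4:**
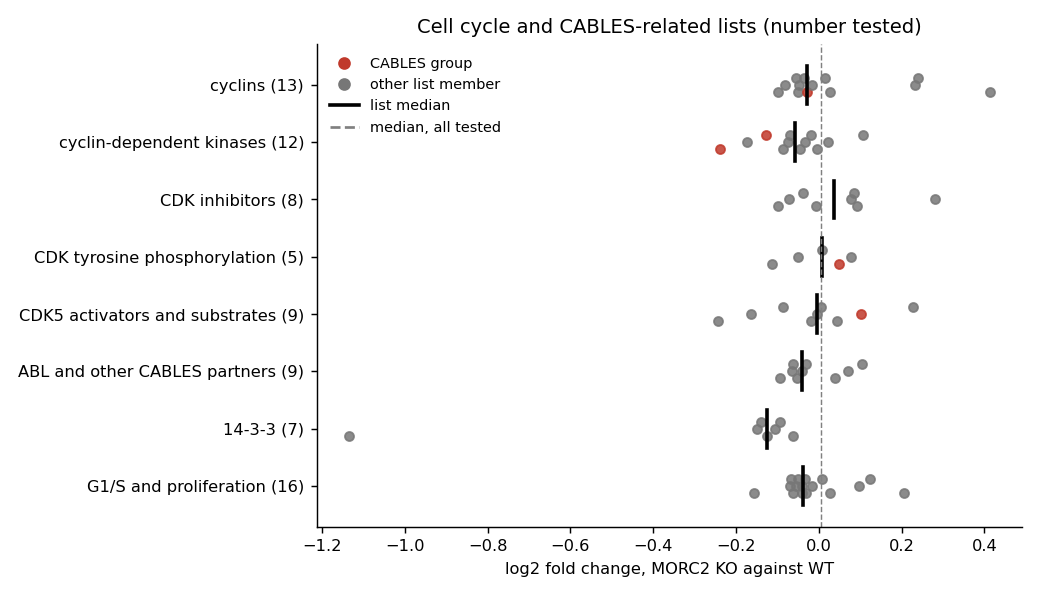
Each point is 1 tested gene of a list, placed on the horizontal axis by its log2 fold change (MORC2 KO against WT), with the number tested beside the list's name. Red points are genes of the CABLES group, thick lines are list medians and the dashed line is the median of all tested genes. Medians of these 8 lists lie between -0.13 (14-3-3 genes) and 0.036 (CDK inhibitors, -0.041 without MORC2 KO replicate 1 and -0.042 without WT replicate 1), and the point at the far left is SFN, which had between 4 and 11 read pairs.

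Likeness to CABLES1 over the 4 samples was measured as the root mean square distance between log2 CPM values, each gene centred on its own mean. Over 16674 genes the median distance was 0.277, and 74 genes lay within 0.1. The nearest was TXNIP, which encodes an inhibitor of thioredoxin, at a distance of 0.011. TXNIP held 367 and 348 read pairs in the edited lines against 476 and 440 in WT, and was not called (adjusted p = 0.0836 in edgeR). PPP1R42, the mitochondrial tRNA gene TRNR, PALMD and CNR1 followed, with distances of 0.015, 0.017, 0.027 and 0.028. These last 4 had between 7 and 34 read pairs per library, so their places in the order are imprecise. None of the 5 was called.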

How the data were processed

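RNA was sequenced as 65 bp read pairs after poly-A capture in 2 MORC2 KO and 2 WT samples of HEK293T. The authors aligned the reads to T2T-CHM13v2.0 with Subread 2.0.6 and deposited counts of read pairs per RefSeq gene from featureCounts 2.0.6, without normalization. Per the file headers, multi-mapping reads were counted, strand was not used and pairs overlapping several genes were not assigned. Columns belonging to no sample of the series numbered 0. Exonic lengths are those of the deposited table. Entrez identifiers were looked up in RefSeq (GRCh38.p14) for symbols, and 28763 of 28775 were found. All 8 members were found, and promoter entries for CDK2 and WEE1 were not among those used. No coordinates were converted.

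Genes with low counts were removed by filterByExpr (16675 left), libraries were scaled by TMM, and genotypes were compared over all genes with edgeR 4.0.16 in R 4.3.3, by quasi-likelihood F-tests in the older form with Benjamini-Hochberg adjustment at 0.05. Each standard error was derived from F as the absolute log2 fold change over its square root. Log2 CPM used a prior count of 2. The methods describe the WT replicates as independent and the KO replicates as separate lines, without giving the cultures, and p-values measure the spread between these samples. Replicates differed by more than counting noise (chi-square per degree of freedom 16.8 in MORC2 KO and 6.56 in WT) and were each counted.

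The members and lists were chosen with earlier results of these data known. The genes named were the members, MORC2, tested genes within 500 kb of CABLES1, the 5 genes of nearest pattern, and in each list the called genes, the 2 of smallest p and the most abundant per kb. CDKN1A, CDK5R2, ABL1, SFN, MKI67, ALB, PTPRC, HBB, KRT5 and the TEN1 genes fall outside this rule and were named after their values were seen. Alternatives were DESeq2 1.42.0, edgeR in its newer form or with robust dispersions, RLE scaling, library size alone, loess offsets (span 0.3), other filters (none, or at least 10 counts in every sample), the replicate number as a term, and each sample left out. The scripts were tested on simulated data. Protein sequences were not used here.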

Additional observations from a re-analysis of the deposited data

How the results depend on the processing

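The log2 fold change of CABLES1 lay between -0.50 and -0.45 over the alternatives that kept all 4 samples, given as a description since this value chose the group. With 1 sample left out it lay between -0.61 and -0.39. Of the other members, CDK5 was also called without the filter on low counts, so that 2 members were called, and CCNE1 changed direction (0.010) with library size alone. Leaving out 1 sample in turn moved the log2 fold change of CDK5 between -0.41 and -0.09. The cause was not tested.

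The numbers of genes called over the whole table moved more. With DESeq2, 17 were lower. Without the filter, 463 were higher and 182 lower. Leaving out 1 sample in turn gave 88 to 1397 higher and 9 to 2117 lower, the largest numbers coming without MORC2 KO replicate 1.

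With the replicate block, 237 genes were higher and 42 lower, against 98 and 5 without it, and 1 member was called. The labels do not say that a number marks a shared culture or batch, and the deviations of same-numbered samples from their group means had a correlation across 16675 genes of -0.12. With the numbers crossed, a fit chosen after seeing the data, 903 genes were higher and 809 lower, with 3 members called. With 2 samples per genotype, the spread between samples more than the depth limits these comparisons.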

Other observations

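The 14-3-3 proteins bind phosphorylated CABLES1, among many other partners. All 7 genes of the family were tested, none was called by edgeR and 1 had an unadjusted p under 0.05. All 7 had a negative log2 fold change, beside 48.5% of all tested genes. That share was not computed for genes of like abundance. The median of the 7 was -0.13, against 0.0054 over all tested genes and -0.048 over genes with a mean log2 CPM over 6. YWHAE, the most abundant per kb, held 82509 and 78485 read pairs in the edited lines against 83704 and 76630 in WT, and its log2 fold change was -0.15 (95% interval from -0.32 to 0.027). YWHAG was at -0.14 (adjusted p = 0.340 in edgeR) and YWHAH at -0.13 (adjusted p = 0.353 in edgeR). The median of the list was -0.043 without MORC2 KO replicate 2, -0.22 without MORC2 KO replicate 1 and -0.049 with loess offsets, and without replicate 1 of MORC2 KO 5 of the 7 were called, in a fit that called 20.5% of all genes.

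Of 16 genes of the G1/S transition and of proliferation, all tested, none was called by edgeR and 2 had an unadjusted p under 0.05. RBL2, which encodes the pocket protein p130, averaged 68.1 ± 5.53 CPM (SD, n = 2) for MORC2 KO and 59.0 ± 0.412 CPM (SD, n = 2) for WT, which is 0.21 on the log2 scale (adjusted p = 0.218 in edgeR). SKP2, a subunit of the ubiquitin ligase that targets p27, was at -0.16 on the log2 scale (adjusted p = 0.307 in edgeR). MCM7, the most abundant of them per kb, was at -0.07. The proliferation marker MKI67 had 17380 and 22383 read pairs in MORC2 KO and 21567 and 15521 in WT, so the samples of one genotype differed by more than the genotypes.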
